A study of Mus musculus with 4 samples.

Results

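The killer lectin receptors described here were 10 genes of the C-type lectin-like receptor family: Klra4, Klra7, Klra8, Klrb1c, Klrc1, Klrd1, Klre1, Klrg1, Klrh1 and Klrk1. They were picked by name from 33696 genes for their unique molecular identifiers (UMIs, which count captured RNA molecules) in natural killer (NK), CD8 T and γδ T cells across the 4 treatment groups. Because their levels in these cells were part of the choice, the levels below are a description. Living CD45+ leukocytes were sorted by FACS from KPC tumours under the skin, grown from a mouse pancreatic cancer line in male C57BL/6NHsd mice aged 8 to 10 weeks. The untreated group received neither agent. The ADU-S100 group received 2 µg of this STING agonist into the tumour once. The anti-LTβR group received 4 intraperitoneal doses of 100 µg of an agonist antibody to the lymphotoxin β receptor. The combination group received both. Tumours were resected on day 14, and 10 tumours were pooled for each group into 1 library. No group had a replicate, so no test of treatment was possible, and every interval below covers counting error only and not the spread between mice.

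Killer lectin receptors are expressed mainly by NK cells and by subsets of T cells, and set the balance of activating and inhibitory signals when these cells meet a target. Inhibitory members, among them the NKG2A chain encoded by Klrc1 and Ly49G encoded by Klra7, bind class I MHC molecules or Qa-1 on healthy cells with their extracellular lectin-like domains and pass on an inhibitory signal through motifs in their cytoplasmic tails. Activating members, among them NKG2D encoded by Klrk1, Ly49D encoded by Klra4 and Ly49H encoded by Klra8, signal through the adaptors DAP10 and DAP12 (Hcst and Tyrobp).

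After filtering, 48848 of the deposited cells were kept, between 7516 in the untreated and 14666 in the combination library. The deposited libraries held 52109958 to 85855398 UMIs. Between 34 and 83 barcodes were shared by each pair of libraries, which is 0.355 to 0.539% of the smaller library. NK cells numbered 244 in the untreated, 191 in the ADU-S100, 574 in the anti-LTβR and 375 in the combination library. CD8 T cells numbered 538, 220, 692 and 691 in the same order, and γδ T cells 47, 21, 73 and 45. Cell types were set from marker genes with every gene whose symbol starts with Klr left out. Levels are given as CPM, a gene's UMIs divided by all UMIs of the cells of that type in that library and scaled to a common total, with exact 95% Poisson intervals. Shares of cells have exact Clopper-Pearson intervals and ratios exact binomial ones. The NK cells held 391 to 497 CPM of the NK marker Ncr1, at most 1.90 of Cd8a and at most 5.35 of Cd8b1. They also held 360 to 513 CPM of Trbc1 and 59.9 to 118 of Trdc. Markers of other cells differed between the NK cells of the libraries. Summed neutrophil markers were at 7.61, 154, 17.7 and 38.8 CPM and B cell markers at 7.61, 5.70, 48.1 and 65.5. Macrophage and monocyte markers were at 894, 774, 1046 and 966, and T cell markers at 611, 604, 826 and 641. The part of these markers in the NK ratios was not tested. The CD8 T cells held 728 to 957 CPM of Cd8a and at most 4.92 of Ncr1. The depth of the cells differed: the median NK cell held 1663 UMIs with the combination therapy and 4946 with ADU-S100, and the median CD8 T cell 2109 and 4520. Levels are therefore not read from raw UMIs, and shares of cells are given also after thinning cells to 1000 UMIs. Cells with fewer were left out of the thinned shares: 3, 1, 36 and 80 NK cells and 10, 8, 16 and 80 CD8 T cells in the order above.

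The sequences upstream of the genes are shown first, because the 3 Ly49 genes differed between the cells below. RefSeq promoter windows (GRCm38.p6) were found for 8 of the 10 members, not for Klrd1 or Klrg1, and all lay on chromosome 6. The 250 bases before the start are printed on the gene's strand for the 3 Ly49 genes, for Klrb1c, whose level ran in the same order of libraries as Klra7 in CD8 T cells, and for Klrh1, which was found in CD8 T cells and hardly in NK cells. Capitals mark the core motifs searched on both strands, TGTGGT (RUNX) and CTTTGA (TCF/LEF). A T-box core, GGTGTGA, was searched as well and was in none of the 11 windows of the members. Over all mouse promoter windows of this length it was in 3.33%, so its absence from 11 windows is near that share.
Klra4, chr6:130067272-130067521, minus strand: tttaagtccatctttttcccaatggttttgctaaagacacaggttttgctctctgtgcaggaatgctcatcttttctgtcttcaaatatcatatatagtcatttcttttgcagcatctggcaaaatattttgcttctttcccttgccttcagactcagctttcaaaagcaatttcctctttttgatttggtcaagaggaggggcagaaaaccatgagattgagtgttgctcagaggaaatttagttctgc
Klra8, chr6:130129899-130130148, minus strand: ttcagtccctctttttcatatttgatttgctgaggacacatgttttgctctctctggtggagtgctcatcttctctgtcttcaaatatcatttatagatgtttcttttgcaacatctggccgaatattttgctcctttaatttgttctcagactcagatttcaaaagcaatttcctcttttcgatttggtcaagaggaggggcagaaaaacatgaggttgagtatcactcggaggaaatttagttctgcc
Klra7, chr6:130233323-130233572, minus strand: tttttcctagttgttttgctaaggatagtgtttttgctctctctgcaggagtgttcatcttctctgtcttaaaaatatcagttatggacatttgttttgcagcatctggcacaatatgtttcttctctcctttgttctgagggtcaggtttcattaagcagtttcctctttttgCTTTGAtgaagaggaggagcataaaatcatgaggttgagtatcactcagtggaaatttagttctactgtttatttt
Klrb1c, chr6:128788642-128788891, minus strand: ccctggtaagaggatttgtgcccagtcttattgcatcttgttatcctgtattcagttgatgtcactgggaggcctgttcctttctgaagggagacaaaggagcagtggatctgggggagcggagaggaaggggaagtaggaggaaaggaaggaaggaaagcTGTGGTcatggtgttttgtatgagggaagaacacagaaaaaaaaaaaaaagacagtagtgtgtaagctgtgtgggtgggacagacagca
Klrh1, chr6:129784271-129784520, minus strand: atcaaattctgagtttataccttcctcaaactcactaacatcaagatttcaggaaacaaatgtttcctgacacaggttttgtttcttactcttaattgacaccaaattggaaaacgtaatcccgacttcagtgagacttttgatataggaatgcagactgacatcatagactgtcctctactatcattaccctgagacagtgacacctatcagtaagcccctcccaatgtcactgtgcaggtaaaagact
The Klra4 and Klra8 windows were identical at 84.5% of 251 aligned positions, and the Klra7 window was identical to them at 74.2 and 75.2%. Klra7 and Klra8 each had another window, not shown, and the pair most alike was chosen for printing. The other Klra7 window was identical to the Klra4 window at 48.6% and the other Klra8 window at 51.9%. The CTTTGA core stood at base 175 of the Klra7 window, counted from its 5′ end, and in neither the Klra4 nor the Klra8 window shown. This core was present in 13.8% of 32851 mouse promoter windows of the same length. The RUNX core stood in the windows of Klrb1c, Klrc1, Klre1 and Klrk1, and in 14% of all windows. A match describes the letters in the window and shows no binding.

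The transcripts also limit which receptors could be told apart. Of the 31-base stretches of each gene's GENCODE transcripts, 55.0% were shared with another gene for Klra8, mostly the pseudogene Klra14-ps, and 53.1% for Klrc1, mostly Klrc2. The share was 24.7% for Klra7, 21.2% for Klrb1c and 17.5% for Klra4. For Klrd1, Klre1, Klrg1, Klrh1 and Klrk1 it was at most 0.8%. Klra4 and Klra8 shared no such stretch with each other, and Klra4 and Klra7 shared 25. Over the first 500 bases of the transcripts, nearest to the end that a 5′ kit reads, the share was 63.4% for Klra8, 40% for Klrb1c, 23% for Klrc1, 12.8% for Klra4 and 9.69% for Klra7. The values of Klra8, Klrb1c and Klrc1 in particular are uncertain to the extent that reads were split between these copies.

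In NK cells the receptors as a group stayed within a narrow range. Their summed level was 5325 CPM in the untreated, 4964 in the ADU-S100, 5191 in the anti-LTβR and 4904 in the combination library. Relative to untreated this was -0.10 on the log2 scale with ADU-S100, -0.04 with anti-LTβR and -0.12 with the combination therapy. Of the 10 receptors, 8 held at least 100 UMIs over the 4 libraries. None of these 8 differed from untreated by 1.5-fold with ADU-S100, where 3.98% of 6477 genes were higher and 5.62% lower by that fold. With anti-LTβR, 1 of the 8 was lower, Klrc1, beside 2.3% of all genes lower and 3.84% higher. With the combination therapy none passed the fold against untreated, beside 6.11% of genes higher and 5.68% lower. Against ADU-S100 alone the combination therapy had 1 receptor lower, again Klrc1, beside 5.08% of genes lower and 7.12% higher, and against anti-LTβR alone none, beside 4.29% of genes lower and 2.86% higher. Both Klrc1 calls were close to the limit. The ratio with anti-LTβR was under 1.5-fold with cell types from marker UMIs (-0.51), at a mitochondrial limit of 10% (-0.51), with a low-depth cluster added (-0.51) and without the 5 cells with most UMIs (-0.54), and that of the combination therapy to ADU-S100 after thinning (-0.43). The median log2 ratio of the 8 to untreated was -0.08, -0.04 and -0.20 in the 3 treated libraries, where all genes had -0.05, 0.00 and -0.01.

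Klrc1, the NKG2A chain of the inhibitory CD94/NKG2A receptor for Qa-1, showed the largest ratio among the 8. Its level was 360 CPM in the untreated, 382 in the ADU-S100, 236 in the anti-LTβR and 246 in the combination library. The libraries without the antibody were thus higher than those with it. The log2 ratio to untreated was -0.61 with anti-LTβR (95% interval -0.80 to -0.41) and -0.54 with the combination therapy (-0.81 to -0.29), whereas it was 0.09 with ADU-S100 (-0.12 to 0.29). A Klrc1 UMI was found in 50% of untreated, 54.5% of ADU-S100, 38.3% of anti-LTβR and 28.0% of combination NK cells. At 1000 UMIs per cell these shares were 27.0, 28.4, 18.2 and 16.9%. In macrophages and monocytes, which should lack the receptor, 0.216 to 0.641% of cells held a Klrc1 UMI at median depths of 3680 to 8943 UMIs. Its partner chain Klrd1 (CD94) did not follow, at 768, 793, 837 and 749 CPM. Klrc2, which encodes the activating NKG2C chain and shares much of its sequence with Klrc1, was at 287, 180, 241 and 190.

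The activating Ly49 receptors differed less. Klra4 (Ly49D) was at 739 CPM in the untreated, 612 in the ADU-S100, 708 in the anti-LTβR and 614 in the combination library. Its log2 ratio was -0.27 both with ADU-S100 (-0.43 to -0.12) and with the combination therapy (-0.44 to -0.10). Klra8 (Ly49H, known for binding a cytomegalovirus protein) was at 597, 477, 668 and 666 in the same order. ADU-S100 alone thus had the lowest Klra8 level, with a log2 ratio to untreated of -0.32 (-0.50 to -0.15), and the combination therapy was 0.48 higher than ADU-S100 (0.30 to 0.66). Klra7 (Ly49G, inhibitory) was at 363, 391, 404 and 293, lowest with the combination therapy at a log2 ratio of -0.31 (-0.56 to -0.07).

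Klrk1 (NKG2D, which binds stress-induced ligands on tumour cells) was highest in the untreated library, at 914 CPM, against 742 with ADU-S100, 808 with anti-LTβR and 793 with the combination therapy. Its log2 ratios of -0.30, -0.18 and -0.20 had intervals below 0 in all 3. Klrb1c, which encodes the NK1.1 antigen used to identify NK cells in these mice, was at 935, 1003, 878 and 955 and no interval of its ratio to untreated left 0. Klre1, a receptor that works with other lectin-like chains, was at 632, 549, 629 and 552. Klrg1, an inhibitory receptor for cadherins found on mature effector cells, held 15 to 43 UMIs per library (14.3 to 25.4 CPM), and the intervals of all its ratios included 0. Klrh1 held 0, 0, 1 and 8 UMIs, and 75% of the 8 came from 1 cell.

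**Figure D1:**
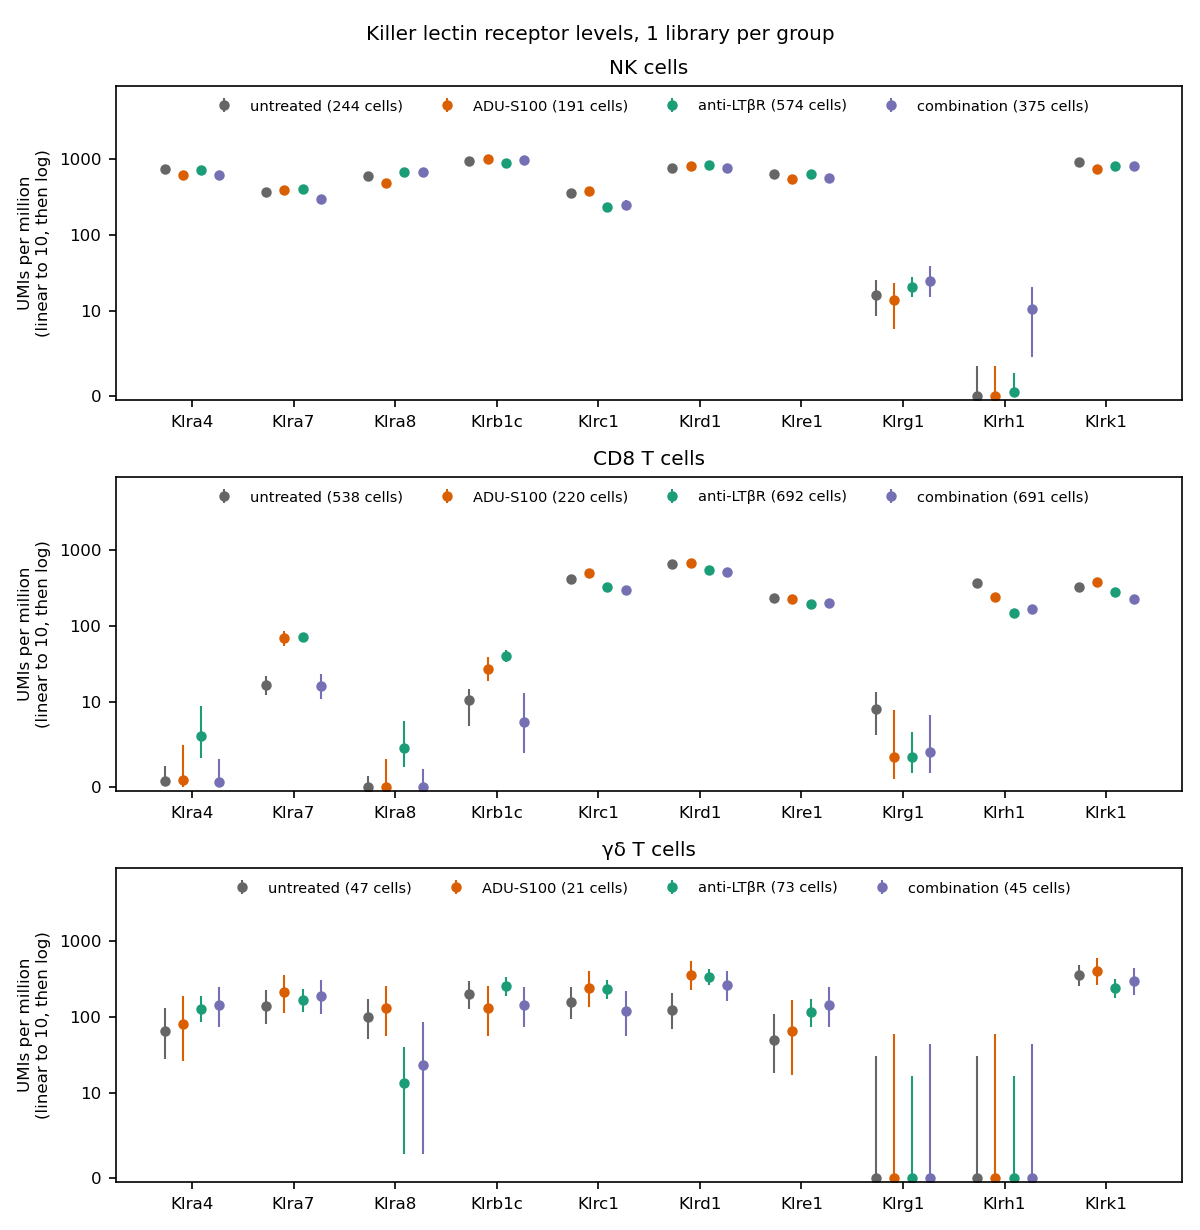
Level of each receptor in CPM (vertical axis, linear to 10 and logarithmic above) in NK, CD8 T and γδ T cells of the 4 libraries. Points are the 1 library of each group and bars its 95% Poisson interval, which covers counting error only. In NK cells 8 receptors lie between 236 and 1003 in every library, and Klrh1 is near 0 there but at 148 to 369 in CD8 T cells.

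**Figure D2:**
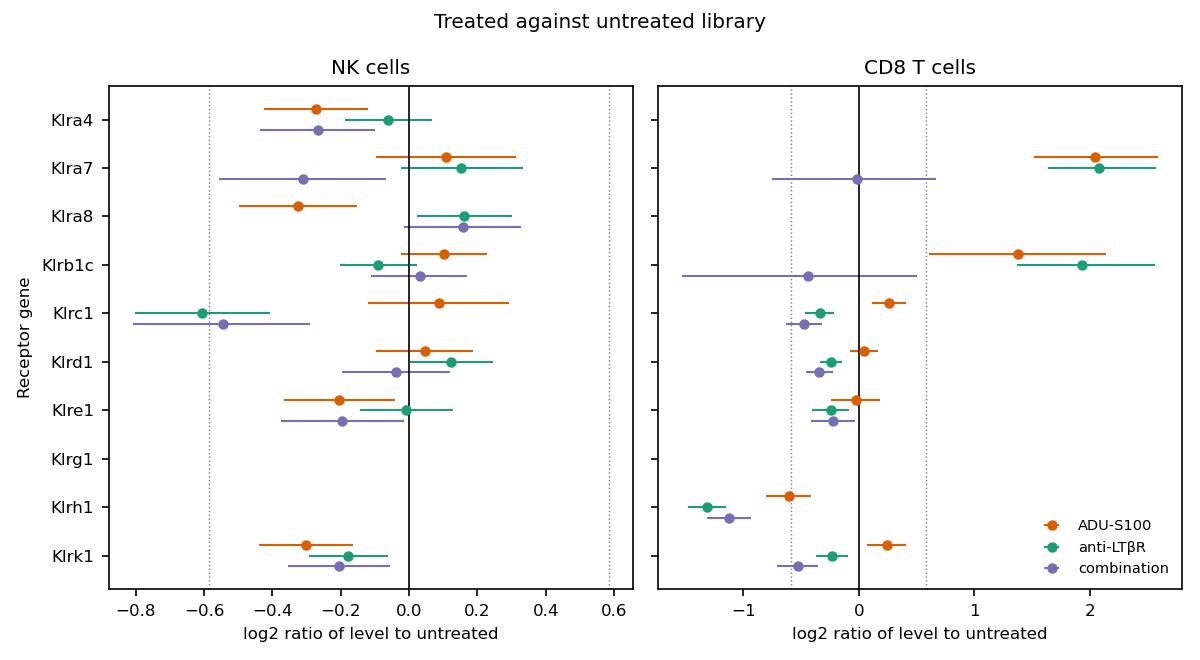
log2 ratio of each receptor's level in a treated library to the untreated library, in NK cells (left) and CD8 T cells (right), for receptors with at least 100 UMIs over the 4 libraries in that type. Bars are 95% intervals for counting error and dotted lines mark 1.5-fold. In NK cells the ratios of Klrc1 with anti-LTβR (-0.61) and with the combination therapy (-0.54) lie furthest from 0, and in CD8 T cells Klra7 and Klrb1c lie far to the right for both monotherapies and not for the combination therapy.

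Single NK cells combined these receptors unevenly, and the point estimates of the main pairs went the same way in the 4 libraries. After thinning to 1000 UMIs, Klra8 was detected in 54.2% of untreated NK cells that held Klra4 and in 26.2% of those that did not. The corresponding shares were 41.8 and 21.5% with ADU-S100, 49.7 and 28.3% with anti-LTβR, and 45.9 and 27.4% with the combination therapy. The 2 activating Ly49 receptors were thus found together more often in each library. Their transcripts shared no 31-base stretch with each other. Klra8 shared 55.0% and Klra4 17.5% of such stretches with other genes. The part of reads split between gene copies in this pairing was not tested. Klrc1 showed the opposite pattern to Klra8. It was detected in 15.6% of untreated NK cells with Klra4 and in 34.5% of those without, in 14.5 and 34.1% with ADU-S100, in 9.60 and 22.4% with anti-LTβR, and in 11.2 and 19.8% with the combination therapy. Split by Klra8 in place of Klra4, Klrc1 was in 12.2 against 35.8, 13.5 against 34.1, 12.1 against 21.6 and 13.1 against 18.9% of cells. In the combination library the Klrc1 intervals overlapped. They were 5.74 to 19.2 against 14.5 to 26.1% split by Klra4, and 7.18 to 21.4 against 13.7 to 25.1% split by Klra8. Slight overlaps were also found with anti-LTβR split by Klra8 and with ADU-S100 split by Klra4. For the inhibitory Klra7 the split by Klra4 was uneven between libraries, at 36.5 against 19.3% in the untreated and 25.5 against 25.9% in the ADU-S100 library. These cells come from 1 library each and are not replicates of a treatment.

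**Figure D3:**
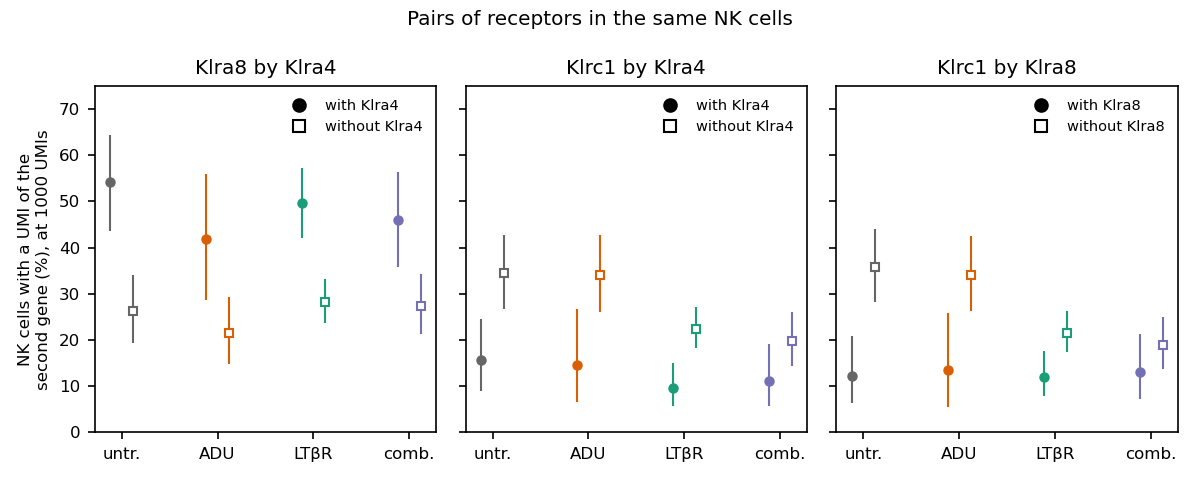
Share of NK cells with a UMI of a second receptor (vertical axis, %), among cells with (filled) and without (open) a UMI of a first receptor, all cells thinned to 1000 UMIs. Bars are exact 95% binomial intervals. In each of the 4 libraries the point estimate of Klra8 is higher in cells with Klra4 (41.8 to 54.2% against 21.5 to 28.3%). That of Klrc1 is lower in cells with Klra4 (9.60 to 15.6% against 19.8 to 34.5%), with overlapping intervals in the combination library.

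At least 1 of the 3 Ly49 receptors was detected in 74.6% of untreated, 70.7% of ADU-S100, 74.2% of anti-LTβR and 65.3% of combination NK cells. At 1000 UMIs per cell the shares were 64.7, 56.3, 62.8 and 59.7%. The median NK cell held UMIs of 6 of the 10 receptors in the untreated and ADU-S100 libraries, 5 with anti-LTβR and 4 with the combination therapy. At equal depth it held 4 in the untreated and 3 in each treated library.

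CD8 T cells carried fewer receptors and differed more between the libraries. The summed level was 2020 CPM in the untreated, 2113 in the ADU-S100, 1619 in the anti-LTβR and 1427 in the combination library. The log2 ratio to untreated was 0.07 with ADU-S100, with an interval that included 0, -0.32 with anti-LTβR (-0.38 to -0.26) and -0.50 with the combination therapy (-0.57 to -0.43). Of the 10 receptors 7 held at least 100 UMIs. With ADU-S100, 2 of the 7 were higher than untreated by 1.5-fold (Klra7 and Klrb1c) and 1 lower (Klrh1), beside 6.54% of 8284 genes higher and 8.59% lower. With anti-LTβR the same 3 receptors passed the fold in the same directions, beside 7.73 and 5.3% of genes. With the combination therapy Klrh1 was lower and none was higher, beside 6.33% of genes lower and 6.52% higher. The combination therapy had 4 receptors lower than ADU-S100 alone (Klra7, Klrb1c, Klrc1 and Klrk1), beside 6.01% of genes lower and 7.85% higher. Against anti-LTβR alone 2 were lower (Klra7 and Klrb1c), beside 3.97% of genes lower and 2.27% higher. The median log2 ratio of the 7 to untreated was 0.24, -0.24 and -0.44, where all genes had -0.04, 0.00 and -0.04. The 3 comparisons with untreated share that library.

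Klra7 and Klrb1c were higher with each monotherapy and not with the combination therapy. Klra7 was at 16.8 CPM in the untreated, 69.6 in the ADU-S100, 71.8 in the anti-LTβR and 16.5 in the combination library. The level was 4.12-fold that of untreated with ADU-S100 (log2 2.04, 1.51 to 2.59) and 4.23-fold with anti-LTβR (log2 2.08, 1.64 to 2.57). With the combination therapy the log2 ratio was -0.02 (-0.75 to 0.67). Klra7 was detected in 3.16, 8.64, 9.25 and 1.88% of CD8 T cells. In macrophages and monocytes, at median depths of 3680 to 8943 UMIs against 2109 to 4734 in CD8 T cells, it was in at most 0.188%. Klrb1c followed the same order, at 10.7, 27.7, 41.2 and 7.66 CPM and in 2.60, 6.82, 8.24 and 1.45% of cells. Its log2 ratio to untreated was 1.38 with ADU-S100 (0.61 to 2.14), 1.93 with anti-LTβR (1.37 to 2.57) and -0.44 with the combination therapy (-1.53 to 0.50).

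Most of this signal lay in 1 cluster of CD8 T cells, whose share also differed between the libraries. Its leading genes were Nsg2, Ifngas1, Trgc4, Sidt1, Lef1, Ifi208, Tcf7, Cd160, Gm2682 and S1pr1. Ifngas1 and Gm2682 were also among the leading genes of a low-depth T cell cluster. With the libraries pooled, the cluster named below by Lef1 and Tcf7 held 30.9% of all CD8 T cells. It held 86.6% of their Klra7 UMIs and 63.5% of their Klrb1c UMIs, but 17 of the 28 Klra7 UMIs of the combination library. It made up 10.4% of CD8 T cells in the untreated, 25.9% in the ADU-S100, 40.8% in the anti-LTβR and 38.6% in the combination library. Within it Klra7 was at 159 CPM in the untreated, 290 in the ADU-S100, 159 in the anti-LTβR and 26.7 in the combination library. Inside this cluster the untreated and anti-LTβR libraries were thus level, with a log2 ratio of -0.02 (-0.49 to 0.51). ADU-S100 was 0.85 higher than untreated (0.31 to 1.44), and the combination therapy was lower by a log2 ratio of -2.55 (-3.48 to -1.74). The cluster held 56 untreated, 57 ADU-S100, 282 anti-LTβR and 267 combination CD8 T cells. Over all CD8 T cells, Klra7 was in 17 untreated and 19 ADU-S100 cells. The intervals treat UMIs as separate counts and do not cover their gathering in few cells. Klrb1c in the cluster was at 66.7, 102, 59.4 and 18.9, with a log2 ratio of -1.80 for the combination therapy (-3.01 to -0.69). Klrk1 was at 222, 139, 127 and 73.9 there. By contrast, in the low-depth T cell cluster Klra7 was at 0 CPM in the untreated library and at 194 with the combination therapy. The latter came from 8 UMIs in 20 CD8 T cells. Klrb1c was at 65.9 CPM in the untreated and 170 in the anti-LTβR library in that cluster. In another cluster, led by histone and cell cycle genes, Klra7 and Klrb1c were both at 61.7 CPM with anti-LTβR, from 19 UMIs each. They were at 2.14 and 4.29 in the untreated library, with log2 ratios of 4.30 (2.19 to 10.2) and 3.56 (1.80 to 6.99). These values rest on 35 anti-LTβR and 47 untreated CD8 T cells, and the spread of the UMIs over cells was not tested. Klra4 held 11 UMIs in the same 35 cells. Of the 117 Klrb1c UMIs in anti-LTβR CD8 T cells, 65 lay in the cluster led by Lef1 and Tcf7. The part of cluster shares in the levels over all CD8 T cells was not tested. In the 7 listed genes of naive and memory CD8 T cells, all 7 were higher by 1.5-fold over all CD8 T cells in each treated library, beside 6.54, 7.73 and 6.52% of all genes, among them Tcf7 at 84.9, 227, 328 and 325 CPM.

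Klrh1, a lectin-like receptor whose role is little described, was carried by CD8 T cells and was lower with each treatment. Its level was 369 CPM in the untreated, 243 in the ADU-S100, 148 in the anti-LTβR and 169 in the combination library. Against untreated, the log2 ratio was -0.60 with ADU-S100 (-0.80 to -0.41; -0.44 and so under 1.5-fold after thinning), -1.32 with anti-LTβR (-1.48 to -1.15) and -1.13 with the combination therapy (-1.32 to -0.94). It was detected in 28.3, 18.6, 12.9 and 12.0% of CD8 T cells, and at equal depth in 17.6, 12.3, 7.69 and 8.84%. In macrophages and monocytes the share was at most 0.257%. At equal depth Klre1 was detected in 34.4% of untreated CD8 T cells with Klrh1 against 16.8% of those without, and the corresponding shares were 26.9 and 16.7, 32.7 and 14.6, and 20.4 and 13.8% in the treated libraries.

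A second cluster, with Cd8a and Rgs16 among its leading genes, held 43.8% of CD8 T cells and 77.7% of Klrh1 UMIs. Its share of CD8 T cells was 58.7% in the untreated, 35.9% in the ADU-S100, 35.5% in the anti-LTβR and 42.8% in the combination library. Inside it Klrh1 was at 464, 444, 343 and 323 CPM, so the difference was smaller than over all CD8 T cells. The log2 ratios were -0.06 with ADU-S100 (-0.29 to 0.16), -0.43 with anti-LTβR (-0.62 to -0.25) and -0.52 with the combination therapy (-0.74 to -0.31). The summed receptor level in this cluster was 2372, 2975, 2491 and 2246, and Klrk1 was at 334, 509, 390 and 335. In the first cluster Klrh1 was at 0, 0, 2.74 and 0. The cluster led by histone and cell cycle genes held Klrh1 at 375, 456, 123 and 194.

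The chains of the CD94/NKG2A receptor and NKG2D were present in many CD8 T cells. Klrc1 was at 410 CPM in the untreated, 490 in the ADU-S100, 324 in the anti-LTβR and 295 in the combination library, and Klrd1 at 647, 668, 548 and 510. Both libraries with the antibody were below untreated for Klrc1, with log2 ratios of -0.34 (-0.47 to -0.21) and -0.47 (-0.63 to -0.32). Inside the cluster led by Cd8a and Rgs16, Klrc1 was at 467, 644, 529 and 409, and there anti-LTβR was above untreated by 0.18 (0.02 to 0.34). In the cluster led by histone and cell cycle genes Klrc1 was lower with anti-LTβR, at -0.41 (-0.79 to -0.04). In the other 4 clusters whose CD8 T cells were tabulated its ratio was above 0, with the largest at 1.04 (0.49 to 1.58) in a cluster of 52 untreated and 18 anti-LTβR CD8 T cells. Klrk1 was at 324, 383, 276 and 225 CPM, with a log2 ratio of -0.53 for the combination therapy (-0.71 to -0.36). Klre1 was at 232, 228, 196 and 199.

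The remaining receptors were rare in CD8 T cells. Klrg1 held 27 UMIs in the untreated and 4, 10 and 7 in the treated libraries, in 3.35, 0.909, 1.16 and 0.579% of cells. Klra4 held 2, 1, 17 and 1 UMIs, with 64.7% of the 17 in 1 cell. It was found in 0.145 to 0.723% of CD8 T cells and in 0.0704 to 0.401% of macrophages and monocytes. Klra8 held 0, 0, 13 and 0 UMIs, with 69.2% of the 13 in 1 cell. The 0 of 691 combination CD8 T cells, taken as at most 3 cells, allows a share of cells with a captured UMI of up to 0.434%, which does not limit the share that express the gene. Markers of other cell types also differed between the CD8 T cells of the libraries: the summed neutrophil markers were at 74.9, 561, 135 and 115 CPM and the macrophage and monocyte markers at 762, 895, 1242 and 1324. Their part in the receptor levels was not tested, and Klra7, Klrb1c, Klrh1, Klrc1 and Klrd1 were each at 5.58 CPM or less in macrophages and monocytes, whereas Klrk1 was at 33.0 to 43.3.

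**Figure D4:**
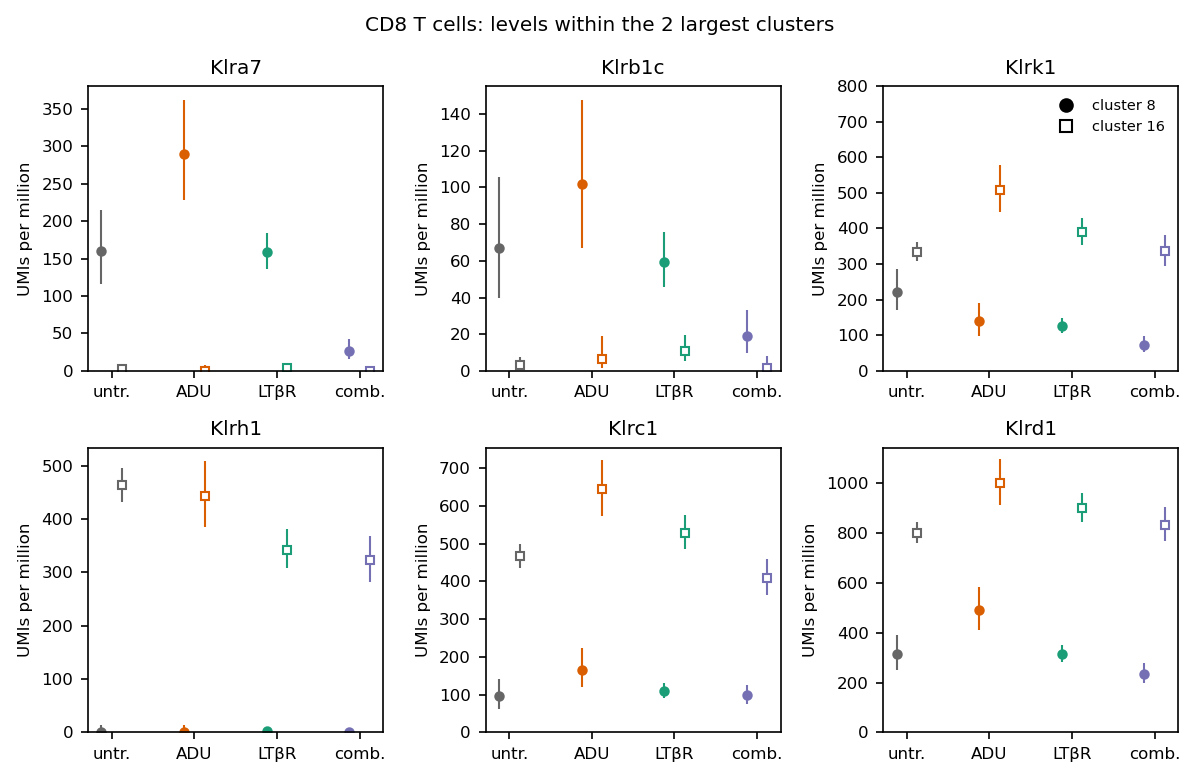
Level of 6 receptors in CPM (vertical axis from 0) within the 2 largest clusters of CD8 T cells, for each of the 4 libraries. Cluster 8 (filled circles) has Lef1 and Tcf7 among its leading genes, and cluster 16 (open squares) Cd8a and Rgs16. Bars are 95% Poisson intervals. Klra7 and Klrb1c lie mostly in the first cluster and are lowest there with the combination therapy (26.7 and 18.9). Klrh1 lies mostly in the second, at 323 to 464.

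γδ T cells were few and their receptor levels uncertain. The summed level was 1193 CPM in the untreated, 1623 in the ADU-S100, 1488 in the anti-LTβR and 1323 in the combination library, from 144, 100, 322 and 111 UMIs. Klrd1 was at 124, 357, 337 and 262, and Klrk1 at 356, 406, 240 and 298. These were the only members with 100 UMIs over the 4 libraries. Klrd1 was higher than untreated by 1.5-fold in all 3 treated libraries, beside 19.6% of 999 genes higher and 14.7% lower with ADU-S100, 8.11 and 10.6% with anti-LTβR, and 11.3 and 16.3% with the combination therapy. Without the 5 cells of each library with most Klrd1 UMIs, the log2 ratio for ADU-S100 turned to -0.52. For the combination therapy it was under 1.5-fold without those cells (0.52), without doublet removal (0.41), after thinning (0.35) and as a mean of CPM over cells (0.53). Neither receptor passed the fold between the combination therapy and ADU-S100 alone, where 19.0% of genes were higher and 28.7% lower and the median of all genes stood at -0.16, nor against anti-LTβR alone, where 7.61 and 11.8% did. Klrg1 and Klrh1 had no UMI in any of the 186 cells, which in the 73 cells of the anti-LTβR library, by the same limit of 3 cells, allows a share of cells with a captured UMI of up to 4.11%, again a limit on detection and not on expression.

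Not all cells called γδ T were alike, and some of the receptors were unevenly spread among them. Of the 186 cells, 65 held no UMI of the CD3 genes, and 35 of these 65 belonged to a low-depth T cell cluster of 799 cells that shared leading genes with the NK cluster. In all, 38 of the γδ T cells lay in that cluster. These 38 cells held 31.6% of the receptor UMIs of all γδ T cells, with 84% of Klra8 and 56.6% of Klra4, but 20% of Klrk1, 24.2% of Klrb1c and 25% of Klrd1. Their summed level was 2984 CPM in the untreated, 3317 in the ADU-S100, 2027 in the anti-LTβR and 750 in the combination library. Among the other 148 cells Klra4 and Klra8 had no UMI in the untreated and ADU-S100 libraries. The summed level in those 148 cells was 714, 968, 1381 and 1407 CPM, so both libraries with the antibody were higher than untreated there. In the combination library the 750 CPM rests on 8 UMIs in 7 cells. Its interval (324 to 1477) overlaps that of the other cells (1148 to 1706), so these were not told apart. A cluster led by Il17a, Sox13 and Trgv6 among others carried Klrk1 at 309, 523, 95.2 and 260, and of the other 9 receptors only Klrc1 and Klrd1 had any UMI in it. By contrast the γδ T cells in the cluster led by Lef1 and Tcf7 carried Klrb1c at 548, 182, 372 and 182 and Klrd1 at 256, 454, 493 and 424, from 3 to 27 cells per library.

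Outside these 3 cell types the receptors were restricted to a few classes. T cells with no CD8, CD4 or γδ call made up 45.5 to 53.4% of the T cells of a library, and their summed level was 1406, 2046, 1641 and 1081 CPM. These may include cells of the called types. CD4 T cells carried Klrg1 at 142 CPM in the untreated, 199 in the ADU-S100, 89.6 in the anti-LTβR and 42.1 in the combination library, and this was the class with the highest Klrg1 level in each library. Dendritic cells carried Klrd1 at 244, 358, 192 and 137 and Klrk1 at 238, 310, 232 and 178, whereas Klrc1 was at 2.54 to 6.16 there. Macrophages and monocytes carried Klrk1 at 33.0 to 43.3 in 12.8 to 19.6% of cells, against 0.463 to 0.620% of neutrophils at median depths of 1029 to 2111 UMIs. In B cells no receptor passed 5.72 CPM in any library, and mast cells and basophils, 12 to 29 cells per library, held none.

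**Figure D5:**
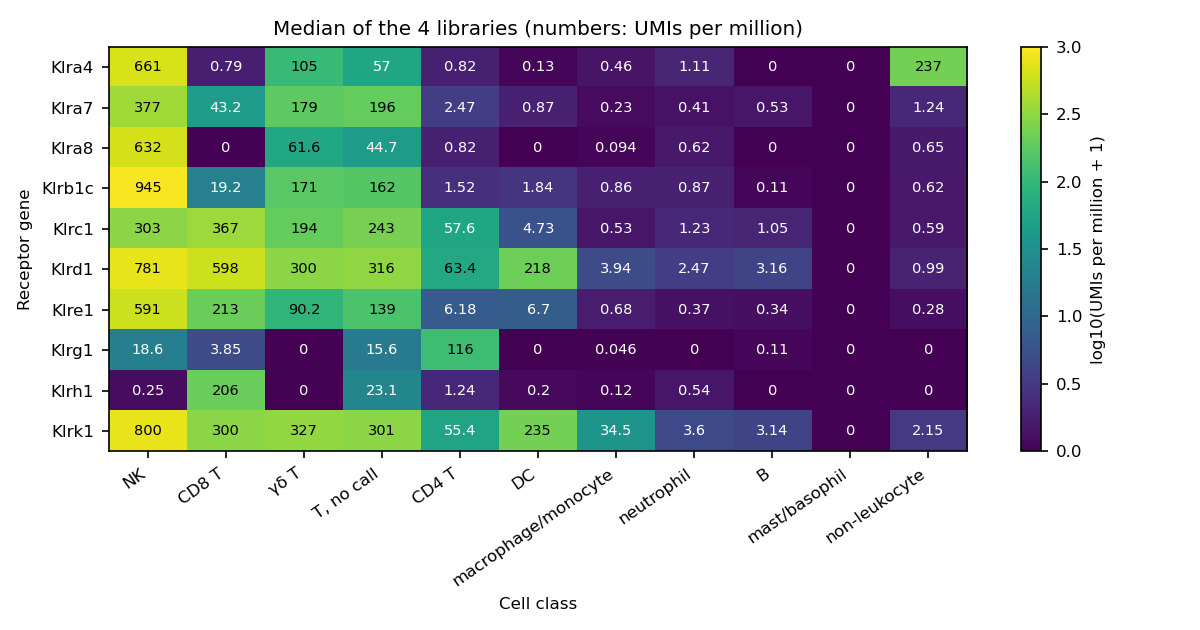
Median over the 4 libraries of each receptor's level in each cell class. Colour is log10(CPM + 1) and the printed numbers are CPM. NK cells carry 8 of the receptors at 303 to 945, Klrg1 is highest in CD4 T cells (116) and Klrh1 in CD8 T cells (206).

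The genes whose levels were most like the summed receptors over 11 cell classes in 4 libraries were found by Pearson correlation of log2(CPM + 1) among 10411 genes. They were Serpinb9, which encodes an inhibitor of granzyme B (r = 0.97), Arsb (0.96), 1700025G04Rik (0.94), 5830408C22Rik (0.94) and Cdca7l (0.94). The 44 points share libraries and depth, so r is a description.

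The wider receptor family was followed with 16 other listed genes, chosen with earlier results of these data known. In NK cells 11 of the 16 held at least 100 UMIs. With ADU-S100 2 were higher by 1.5-fold and 3 lower, with anti-LTβR 2 and 1, and with the combination therapy 2 and 4. Over all genes 3.98% were higher and 5.62% lower with ADU-S100, 3.84 and 2.3% with anti-LTβR, and 6.11 and 5.68% with the combination therapy. Klra1 (Ly49A) was at 38.0, 61.8, 70.6 and 57.5 CPM, and Klra3 (Ly49C) at 228, 141, 148 and 138, so these inhibitory Ly49 receptors differed in opposite directions. In CD8 T cells 6 were measured at this depth. With ADU-S100 4 of these were higher and none lower, with anti-LTβR 2 and none, and with the combination therapy 1 (Klrb1b) and 3 (Klra1, Klra3 and Klra6), beside 6.54, 7.73 and 6.52% of all genes higher and 8.59, 5.3 and 6.33% lower. Klra1 was at 4.81, 19.6, 22.2 and 0.589 and Klra6 at 14.4, 41.1, 31.3 and 9.43, so both were higher than untreated with each monotherapy and lower with the combination therapy, where Klra7 was level with untreated. Klra1 shares transcript stretches with Klra4, and reads of these genes may be split.

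Adaptors and downstream signalling genes differed little in NK cells. Of 11 measured, 1 was lower with ADU-S100, Cd247, which encodes the CD3ζ chain, at 256 CPM in the untreated and 159 in the ADU-S100 library. Over all genes 5.62% were lower in that comparison. None passed the fold against untreated with anti-LTβR or the combination therapy. Tyrobp (DAP12) was at 1662, 1674, 1756 and 1851 and Hcst (DAP10) at 349, 368, 329 and 344. In CD8 T cells 2 of 10 were higher in each treated library, Fcer1g and Syk with ADU-S100 and Tyrobp and Syk with the other 2, and 1 was lower with ADU-S100, the phosphatase gene Ptpn6. Over all genes 6.54, 7.73 and 6.52% were higher in CD8 T cells of the 3 treated libraries and 8.59% lower with ADU-S100. Tyrobp there was at 28.9, 39.3, 69.6 and 64.2, and these values stood beside the macrophage and monocyte markers given above, whose part was not tested.

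Among ligands of the receptors, 8 were measured in NK cells. The class I genes H2-K1 and H2-D1, read by Ly49 receptors, were at 2624 to 2852 and 1923 to 2054 CPM. H2-T23, which encodes the Qa-1 ligand of CD94/NKG2A, was at 319, 311, 303 and 250. With anti-LTβR 1 was higher by 1.5-fold, Cdh1, which encodes the E-cadherin ligand of Klrg1 (22.8 in the untreated and 38.3 in the anti-LTβR library). Ulbp1, an NKG2D ligand, was lower with anti-LTβR (32.3 and 17.7), and Clec2i with the combination therapy (98.9 and 54.8). In CD8 T cells 1 of 9 ligand genes was higher with ADU-S100 (Raet1e), 1 with anti-LTβR (Clec2i) and none with the combination therapy, which is near the 6.54, 7.73 and 6.52% of all genes. In NK cells 3.84% of all genes were higher and 2.3% lower with anti-LTβR, and 5.68% lower with the combination therapy.

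Of 10 other NK receptors measured in NK cells, 2 were lower than untreated in the combination library, where 5.68% of all genes were lower, the activating receptor Cd226 (200, 165, 153 and 82.9 CPM) and Cd96 (123, 133, 116 and 70.9), and with each monotherapy 1 was lower, Crtam, beside 5.62% of all genes lower with ADU-S100 and 2.3% with anti-LTβR. Of 9 in CD8 T cells, 2 were higher and 2 lower in each of ADU-S100 and the combination therapy, and 1 and 2 with anti-LTβR. Over all genes 6.54, 7.73 and 6.52% were higher and 8.59, 5.3 and 6.33% lower in CD8 T cells of the 3 treated libraries. Slamf6 was among the higher and Cd244a among the lower in all 3.

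NK maturation and tissue residence genes were read beside the receptors. Of 9 conventional NK and maturation genes, Ly6c2 was higher with each treatment (51.4, 79.8, 110 and 128 CPM), and Gzma and Prf1, which encode cytotoxic granule proteins, also with the combination therapy. Gzma was at 1784, 2447, 2633 and 3466. Of 8 genes of group 1 innate lymphoid cells and tissue-resident NK cells, none was lower with ADU-S100, 1 with anti-LTβR (Cxcr6) and 4 with the combination therapy (Cxcr6, Inpp4b, Tmem176a and Tmem176b). Over all genes in NK cells 3.98, 3.84 and 6.11% were higher and 5.62, 2.3 and 5.68% lower in the 3 treated libraries. Cxcr6, a chemokine receptor of resident cells, was at 32.3, 32.3, 13.7 and 16, and like Klrc1 it was lower in both libraries with the antibody. Of 8 genes of exhausted CD8 T cells, 4 were lower in CD8 T cells with ADU-S100, 5 with anti-LTβR and none with the combination therapy, and none was higher. Over all genes 8.59, 5.3 and 6.33% were lower in these comparisons. Tox, a regulator of exhaustion, was at 1628, 594, 755 and 1101. Of 7 effector genes, Gzma was higher in CD8 T cells with each treatment (67.7, 432, 253 and 262), beside 6.54, 7.73 and 6.52% of all genes higher, and 1 was lower with anti-LTβR (Cx3cr1) and 1 with the combination therapy (Gzmb), beside 5.3 and 6.33%. Of 6 IL-17 genes measured in γδ T cells, Il17a was higher with the combination therapy (298, 162, 231 and 1562), and 1, 3 and 4 were lower in the 3 treated libraries. Over all genes in γδ T cells 11.3% were higher with the combination therapy, and 14.7, 10.6 and 16.3% were lower in the 3 libraries. The combination library had 45 γδ T cells, 9 of them in the cluster led by Il17a, Sox13 and Trgv6. The spread of Il17a UMIs over these cells was not tested. Of the NKT and innate-like T list 1 gene, Fcer1g, was measured in γδ T cells, at 323, 195, 573 and 584.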

How the data were processed

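Single-cell RNA was measured in 4 libraries, 1 per group, with a 10x 5′ kit. The authors deposited UMI counts per gene and cell, not normalized; per the file headers they came from Cell Ranger 8.0.1, while the labels name 7.1.0, and the build named in the labels is mm10. Of the 33696 gene IDs, 1735 were not in GENCODE vM21, so no gene coordinates are given besides the RefSeq windows. Cells with 300 to 5000 genes and at most 6% mitochondrial UMIs were kept, the limits the study states. The automatic threshold of Scrublet marked 0 or 1 cell per library, so the cells with the highest scores were removed, a share of 0.4% for every 1000 deposited cells (260, 885, 816 and 1032 of the cells that passed). Counts were scaled to 10000 per cell, and 2000 variable genes, 30 components and 20 neighbours gave Leiden clusters at resolution 1 (scanpy 1.11.5, leidenalg 0.10.2). Classes were named from marker genes. T cells were divided by CD8, CD4 and γδ marker UMIs in each cell. UMIs were then summed per library and class.

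Ratios used counts with 0.5 UMI added to each, and exact intervals (scipy 1.17.1). A gene counted as measured with 100 UMIs over the 4 libraries and as higher or lower at 1.5-fold. With 1 library per group there was no test. Scripts were tested on simulated data. The members and gene lists were chosen with earlier results of these data known. Named list genes passed 1.5-fold, at most 4 per list and comparison by size; other list genes, such as Hcst, H2-K1, H2-D1 and H2-T23, were named after their values were seen. The first experiment of the study was not analysed here.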

Additional observations from a re-analysis of the deposited data

Results flagged for a closer look

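In 4 comparisons with untreated a receptor was higher in one cell type and lower in another, with 1 library per group, so the difference was not tested. Klrk1 with ADU-S100 was 0.24 higher in CD8 T cells and -0.30 in NK cells on the log2 scale, a difference of 0.5413. Klrd1 with anti-LTβR was 0.12 higher in NK cells and -0.24 in CD8 T cells, a difference of 0.3625. Klrd1 with anti-LTβR was 1.40 higher in γδ T cells, which differed from CD8 T cells by 1.643. Klrd1 with the combination therapy was 1.06 higher in γδ T cells and -0.34 in CD8 T cells, a difference of 1.405. The γδ T cell values rest on 15 Klrd1 UMIs in the untreated library.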

How the results depend on the processing

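No paired analysis was possible because each group had 1 library, and for the same reason no replicate could be left out. The alternatives that use the low-depth cluster sharing leading genes with the NK cluster, and the values by cluster, were chosen after seeing the data. Of 135 alternative values of the summed level, 88 lay within the counting interval of the main value, 44 lay outside it and 3 reversed; of 1125 for single receptors these were 984, 128 and 13. A ratio was counted as reversed only where the interval of its main value excluded 0, so values that changed sign from a main value whose interval included 0 are among those inside or outside the interval. All values below are log2 ratios, and the cause of each move was not tested.

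For the summed level in NK cells, cell types set from marker UMIs alone gave -0.037 for ADU-S100, 0.066 for anti-LTβR and -0.011 for the combination therapy against untreated. Thinning gave -0.16 for ADU-S100 against untreated and 0.044 for the combination therapy against ADU-S100. A mitochondrial limit of 10% gave -0.20, -0.11 and -0.21 for the combination therapy against untreated, ADU-S100 and anti-LTβR. Adding the low-depth cluster gave 0.016 for anti-LTβR against untreated, and -0.19, -0.13 and -0.20 for those 3 comparisons of the combination therapy. The mean of CPM over cells gave -0.091 for the combination therapy against ADU-S100. In CD8 T cells, without doublet removal the 3 treated libraries were at -0.017, -0.40 and -0.58 against untreated, and with the mean of CPM over cells at -0.034, -0.41 and -0.62. Thinning gave -0.010 for ADU-S100 and -0.41 for anti-LTβR.

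In γδ T cells the summed level depended on the cells included. For the combination therapy the main values were 0.15 against untreated and -0.30 against ADU-S100, and both changed sign under several alternatives. ADU-S100 against untreated was -0.16 after thinning and 0.027 without the 5 cells with most UMIs. Anti-LTβR against untreated was 0.92 with marker UMIs alone, 0.70 at doubled resolution, 1.01 at the 10% limit, 0.90 with a CD3 UMI required, 0.94 without the low-depth cluster, -0.017 after thinning and -0.046 as a mean of CPM. The combination therapy against untreated was 1.09, 0.76, 1.00, 0.94 and 0.97 under the first 5 of these, -0.65 after thinning, -0.28 as a mean of CPM, -0.32 without doublet removal and -0.26 without the top cells. Against ADU-S100 it was 0.50, 0.54, 0.55, 0.44 and 0.53 under the same 5, and against anti-LTβR 0.17 with marker UMIs alone, -0.63 after thinning and -0.75 without the top cells.

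Single receptors reversed as follows. After thinning, Klra8 in NK cells was -0.070 for anti-LTβR against untreated, Klrd1 in NK cells 0.062 for the combination therapy against anti-LTβR, and Klra4 in CD8 T cells -0.36 for anti-LTβR against untreated. With marker UMIs alone, Klre1 in NK cells was 0.033 for the combination therapy against untreated and Klra4 in CD8 T cells 1.18 for it against anti-LTβR. Without the 5 top cells Klrd1 in γδ T cells was -0.52 for ADU-S100 against untreated. Klra8 in γδ T cells was 1.35, 1.51 and 1.40 for anti-LTβR against untreated at doubled resolution, at the 10% limit and without the low-depth cluster, and for the combination therapy against ADU-S100 1.59, 1.65 and 1.60, with 2.35 from marker UMIs alone. The ratios of Klra7 in CD8 T cells ran from 1.80 to 2.56 for ADU-S100 and from 1.72 to 3.22 for anti-LTβR. Those of Klrb1c there ran from 1.15 to 1.51 and from 1.12 to 2.77. For Klrc1 in NK cells the range was -0.80 to -0.51 for anti-LTβR. The counts of genes past the fold depend on the limits: in NK cells with anti-LTβR 249 were higher and 149 lower at 1.5-fold, against 40 and 12 at 2-fold, where Klrc1 no longer passed. In CD8 T cells with ADU-S100 these were 542 and 712 against 164 and 204, where Klra7 and Klrb1c passed and Klrh1 did not, and with a minimum of 500 UMIs neither Klra7 nor Klrb1c was measured.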

Other observations

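Klra4 was also found outside the lymphocytes. In a cluster of 816 cells named non-leukocyte from its markers and with Gpr39, Lgr6 and Kirrel3 among its leading genes, which the CD45+ sort would be meant to remove, Klra4 was at 258 CPM in the untreated, 305 in the ADU-S100, 179 in the anti-LTβR and 216 in the combination library. A Klra4 UMI was found in 48.7, 43.0, 49.7 and 37.8% of its 152, 214, 199 and 251 cells. Klra7 and Klra8 were at 2.77 CPM or less there in every library, and Klrd1 and Klrc1 at 2.77 or less. Klra6, another Ly49 gene, was at 29.7, 68.1, 23.3 and 22.4 CPM in the same cells. In macrophages and monocytes Klra4 was at 0.52 CPM or less. This cluster was singled out after its values were seen.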
